A study of Mus musculus with 6 samples.

Results

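The expression of 9 developmental genes that mark neural progenitors and their early descendants was followed in thyroid organoids derived from mouse embryonic stem cells (Sox1, Sox3, Sox11, Pax3, Pax6, Zic1, Nes, Fabp7 and Dcx). They were chosen by name, as well-known markers of the embryonic neural tube, and with earlier results of these data known. They are 9 of the 25239 genes listed in the bulk RNA-seq count table. All 9 passed the filter on low counts, which left 15256 genes for testing.

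The organoids came from a derivative of the G4 RosaLuc line, which carried both a TRE-Nkx2-1-Pax8 cassette and a bTg-NES-BrafV637E-ERT2 transgene (the letters NES are part of the name of the construct and are not read here as the gene Nes). Clones were selected when it was made, and whether 1 clone or several gave the RNA is not given in the sources used here. In all 3 groups, doxycycline (1 µg/ml for 5 days) switched on the thyroid factors Nkx2-1 and Pax8, the cells matured for 2 weeks in the cAMP analog 8-Br-cAMP, which was kept on during the treatments, and a BrafV637E-ERT2 fusion was driven by the bovine thyroglobulin promoter, which aims its expression at thyroid follicular cells. Control organoids (cAMP) received ethanol vehicle beside it. A second group (4OHT) received 1 µM 4-hydroxytamoxifen, which activates the fusion, for 5 days. The remaining group (PD+LY) received 1 µM 4-hydroxytamoxifen and, for the last 3 days, 250 nM PD0325901 (which blocks MEK) plus 5 µM LY204002 (which blocks PI3K). Because the inhibitors were described as added after 4 days of 4-hydroxytamoxifen alone, PD+LY and 4OHT may also differ in days of 4-hydroxytamoxifen, and the drugs and this time cannot be told apart. Material was enriched for follicles and collected on day 31. Each group had 2 libraries, each a pool of at least 3 wells, and non-thyroid cells were still present after enrichment. The libraries held 14898409 to 20637959 counts.

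In the vertebrate embryo, SoxB1 factors (Sox1, Sox2 and Sox3) keep neuroepithelial cells in a dividing progenitor state, and the SoxC factor Sox11 acts as these cells begin to differentiate into neurons. Pax6, Pax3 and Zic1 pattern the neural tube along its back-to-belly axis, whereas the intermediate filament nestin (Nes) and the brain lipid-binding protein Fabp7 mark progenitors and radial glia, and doublecortin (Dcx) binds microtubules in newborn, migrating neurons. None of these genes is limited to neural tissue: Pax6 also works in lens and pancreatic islets, Pax3 in neural crest and muscle progenitors, and Nes in mesenchymal and endothelial cells. Neural cells are a common by-product when embryonic stem cells differentiate in culture.

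Levels are given in CPM, the count relative to the library total after TMM scaling. A gene is said to have risen or fallen where edgeR's quasi-likelihood test gave an adjusted p below 0.05 (Benjamini-Hochberg over the 15256 genes), and is called a differentially expressed gene (DEG) where it also changed at least 2-fold. The differences summed up here are given gene by gene further on. In 4OHT organoids, Sox1, Sox3 and Sox11 fell to between 2.44-fold and 4.95-fold below cAMP, while Nes and Pax6 differed from cAMP by less than the spread between libraries. In PD+LY, Sox1, Sox3 and Sox11 were again DEGs below cAMP, Pax3 and Fabp7 joined them, and Pax6 and Nes rose 1.61-fold and 1.43-fold above it. These are whole-sample values, in which fewer cells of a type and less RNA per cell cannot be told apart.

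**Figure D1:**
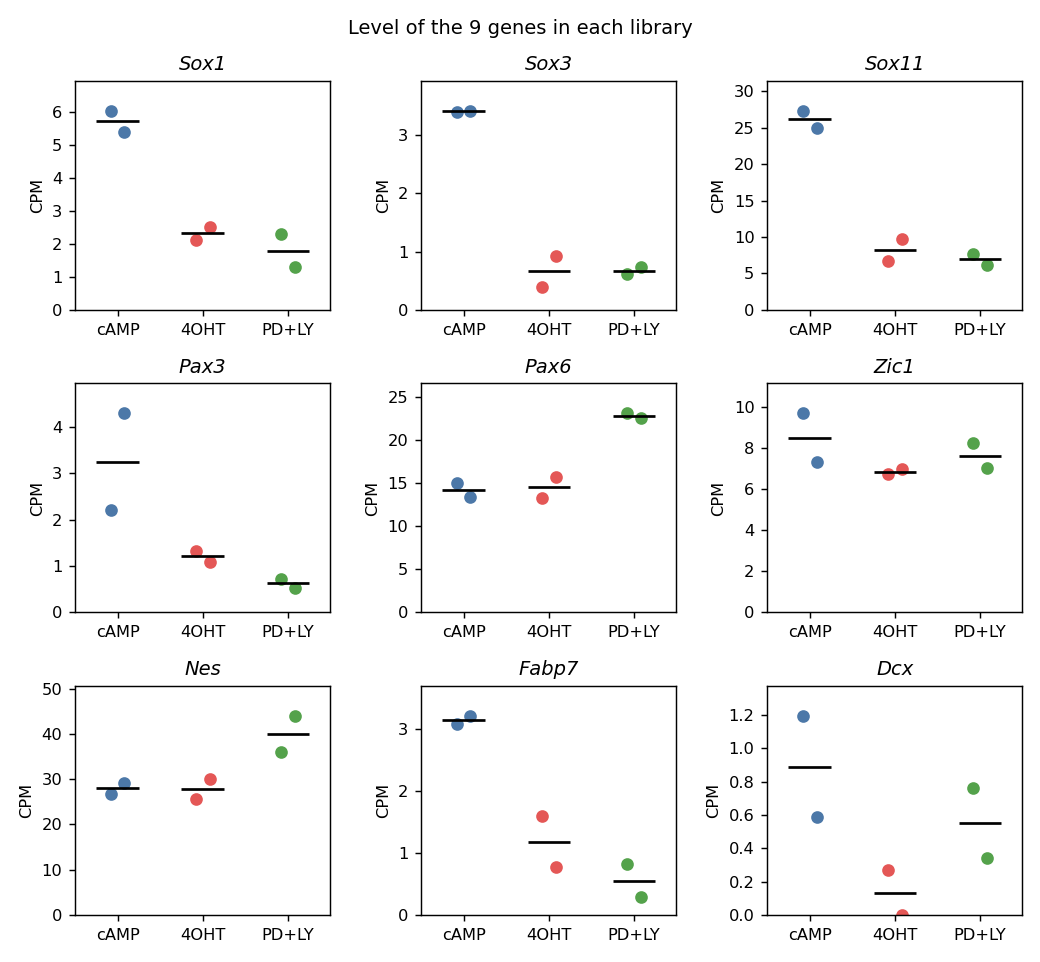
CPM (y axis, linear and starting at 0, with its own scale for each gene) of the 9 genes in the libraries of the cAMP, 4OHT and PD+LY groups. Each point is 1 library and each bar the mean of 2. Sox1, Sox3 and Sox11 were lower in all 4 treated libraries than in the cAMP libraries, whereas Pax6 and Nes were highest in PD+LY.

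To show the DNA in front of genes that moved in opposite directions, the sequence just upstream of the RefSeq transcript start (positions -250 to -43, 208 bases, GRCm38.p6) is given on the strand of the gene for 2 genes that were lower (Sox11, at chr12:27342761-27342968 on the minus strand, and Fabp7, at chr10:57784673-57784880 on the plus strand) and 2 that were higher in PD+LY (Pax6, at chr2:105668646-105668853, and Nes, at chr3:87970843-87971050, both on the plus strand). Capitals mark matches, on either strand, to any of 7 motifs that were searched: the cAMP response element TGACGTCA, the ETS core CCGGAA, the AP-1 site TGANTCA, the octamer ATGCAAAT, the CCAAT box CCAAT, the GC box GGGCGG and the TATA box TATAAA.
Sox11: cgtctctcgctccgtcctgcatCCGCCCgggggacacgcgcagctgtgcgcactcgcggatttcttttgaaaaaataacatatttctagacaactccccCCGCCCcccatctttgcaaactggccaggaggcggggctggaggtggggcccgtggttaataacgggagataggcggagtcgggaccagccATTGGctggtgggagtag
Fabp7: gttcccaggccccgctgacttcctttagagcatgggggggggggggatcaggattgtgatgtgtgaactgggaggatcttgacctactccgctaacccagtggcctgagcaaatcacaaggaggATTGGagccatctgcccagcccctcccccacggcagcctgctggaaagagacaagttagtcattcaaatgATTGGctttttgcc
Pax6: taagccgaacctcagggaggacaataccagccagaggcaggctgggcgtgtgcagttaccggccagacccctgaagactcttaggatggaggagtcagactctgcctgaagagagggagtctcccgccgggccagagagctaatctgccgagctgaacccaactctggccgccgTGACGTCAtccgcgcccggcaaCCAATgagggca
Nes: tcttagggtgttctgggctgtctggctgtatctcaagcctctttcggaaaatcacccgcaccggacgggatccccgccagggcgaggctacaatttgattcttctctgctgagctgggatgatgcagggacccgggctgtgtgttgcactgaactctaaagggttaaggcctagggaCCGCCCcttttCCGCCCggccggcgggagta
The Pax6 window shown, at the more upstream of 2 RefSeq starts, held 1 cAMP response element, a motif found in 0.950% of 32851 RefSeq promoter windows of the same length, and 1 CCAAT box. The same window at the other Pax6 start (chr2:105682213-105682420), not printed because it holds a Pax6 exon, had 0 matches to the 7 motifs. The Fabp7 window held 2 CCAAT boxes and the Nes window 2 GC boxes. The Sox11 window held 1 CCAAT box and 2 GC boxes. Those motifs are common, with a CCAAT box in 29.6% and a GC box in 26.2% of all windows. The ETS core, AP-1 site, octamer and TATA box, present in 8.63%, 5.78%, 1.38% and 9.47% of windows, had no match in the 4 sequences. A match describes letters and does not show binding. Promoter entries were matched for 7 of the 9 genes.

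Sox1 (chr8:12395295-12400126, a single exon on the plus strand, GENCODE M21 on GRCm38) encodes a SoxB1 factor that is switched on as cells commit to a neural fate. Its level was 6.03 and 5.41 CPM in the cAMP libraries, 2.13 and 2.52 CPM in 4OHT, and 2.29 and 1.31 CPM in PD+LY. Both treated groups lay wholly below cAMP and overlapped each other. Sox1 fell 2.44-fold in 4OHT versus cAMP (log2 fold change -1.29, SE 0.31, adjusted p = 0.0257) and 3.17-fold in PD+LY versus cAMP (-1.66, SE 0.31, adjusted p = 0.00247). Between PD+LY and 4OHT the log2 difference was -0.38 with a 95% interval from -1.12 to 0.36 (adjusted p = 0.452). The 4OHT call rested on both libraries of each group: the adjusted p was 0.122 without cAMP replicate 1, 0.0714 without cAMP replicate 2, 0.204 without 4OHT replicate 1 and 0.129 without 4OHT replicate 2, with log2 fold changes from -1.42 to -1.17.

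Sox3 (chrX:60891366-60893430, a single exon on the minus strand) encodes a SoxB1 factor of the neural plate and the developing pituitary. It measured 3.39 and 3.41 CPM in cAMP, 0.400 and 0.932 CPM in 4OHT, and 0.611 and 0.729 CPM in PD+LY. No treated library reached 1 CPM, and the 2 cAMP libraries were close to identical. The fall was 4.95-fold in 4OHT (log2 fold change -2.31, SE 0.44, adjusted p = 0.00897) and 5.03-fold in PD+LY (-2.33, SE 0.43, adjusted p = 0.00216), both versus cAMP. In 4OHT the 2 libraries held 6 and 17 counts. Without 4OHT replicate 1 the log2 fold change was -1.86 and the call was lost (adjusted p = 0.106). PD+LY differed from 4OHT by a log2 value of -0.02 (95% interval -1.14 to 1.09).

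Sox11 (chr12:27334264-27342574, a single exon on the minus strand), the SoxC factor whose upstream sequence is printed above, was the most abundant of the Sox genes among the 9. Its libraries measured 27.3 and 24.9 CPM in cAMP, 6.73 and 9.76 CPM in 4OHT, and 7.74 and 6.22 CPM in PD+LY. The lowest cAMP library was thus far above every treated library, and the treated groups overlapped. Sox11 fell 3.14-fold in 4OHT (log2 fold change -1.65, SE 0.20, adjusted p = 0.000566) and 3.74-fold in PD+LY (-1.90, SE 0.20, adjusted p = 4.56e-05), each versus cAMP. It was the DEG among the 9 whose 4OHT call was kept under all 6 omissions of a library, with log2 fold changes between -1.95 and -1.42. The PD+LY to 4OHT difference was -0.25 on the log2 scale (95% interval -0.71 to 0.21, adjusted p = 0.417), and the upper bound of that interval is smaller than the 4OHT fall.

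Pax3 (chr1:78101267-78197134, minus strand) specifies the dorsal neural tube and neural crest. It measured 2.20 and 4.29 CPM in cAMP, 1.33 and 1.10 CPM in 4OHT, and 0.713 and 0.535 CPM in PD+LY. The 3 groups were in this order without overlap, although the gap between the 2 cAMP libraries was about as wide as the one between the cAMP and 4OHT means. Pax3 fell 5.22-fold in PD+LY versus cAMP (log2 fold change -2.38, SE 0.45, adjusted p = 0.00254). This call was lost without cAMP replicate 2 (log2 fold change -1.80, adjusted p = 0.0539). In 4OHT versus cAMP the log2 fold change was -1.43 (SE 0.43, 95% interval -2.36 to -0.51) with an adjusted p of 0.0592, which missed the threshold, and it was below that threshold in 4 of the 6 other ways of fitting. Without cAMP replicate 2 this value was -0.85. PD+LY differed from 4OHT by -0.95 on the log2 scale (95% interval -2.04 to 0.14, adjusted p = 0.190).

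Pax6 (chr2:105668900-105697364, plus strand), a homeodomain factor of cortical and ventral progenitors, of eye and of endocrine pancreas, behaved otherwise. Its levels were 15.02 and 13.4 CPM in cAMP, 13.3 and 15.7 CPM in 4OHT, and 23.1 and 22.6 CPM in PD+LY. The cAMP and 4OHT libraries interleaved, and both PD+LY libraries stood above them. Pax6 rose 1.57-fold in PD+LY versus 4OHT (log2 fold change 0.65, SE 0.15, adjusted p = 0.00976) and 1.61-fold versus cAMP (0.69, SE 0.15, adjusted p = 0.00601), under the 2-fold threshold for a DEG. The first call was lost without 4OHT replicate 1 (0.54, adjusted p = 0.109) and the second without cAMP replicate 2 (0.61, adjusted p = 0.0579). For 4OHT versus cAMP the log2 difference was 0.04, with a 95% interval from -0.30 to 0.38.

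Zic1 (chr9:91358058-91365810, minus strand), a zinc finger factor of the dorsal neural tube and cerebellum, measured 9.68 and 7.31 CPM in cAMP, 6.73 and 6.96 CPM in 4OHT, and 8.25 and 7.00 CPM in PD+LY. It passed no test, with log2 fold changes of -0.30 in 4OHT versus cAMP (95% interval -0.77 to 0.16, adjusted p = 0.426) and -0.15 in PD+LY versus cAMP (95% interval -0.61 to 0.31, adjusted p = 0.641). From 4OHT to PD+LY it was 0.15 (95% interval -0.31 to 0.62, adjusted p = 0.640). The cAMP and PD+LY libraries overlapped, and both 4OHT libraries were just below them. Zic1 shares 60 exon bases with Zic4 on the opposite strand, and counting ignored strand. How reads over these bases were assigned is not given in the sources used here. The mean of Zic4 was at most 0.765 CPM in any group.

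Nes (chr3:87971078-87980451, plus strand), the intermediate filament of dividing progenitors, had libraries at 26.8 and 29.2 CPM in cAMP, 25.7 and 30.0 CPM in 4OHT, and 35.9 and 44.0 CPM in PD+LY. As with Pax6, cAMP and 4OHT overlapped and PD+LY lay above both. Nes rose 1.43-fold in PD+LY versus 4OHT (log2 fold change 0.52, SE 0.14, adjusted p = 0.0223) and 1.43-fold versus cAMP (0.51, SE 0.14, adjusted p = 0.0204). The first call was lost without 4OHT replicate 1 (adjusted p = 0.190), 4OHT replicate 2 (adjusted p = 0.0695) or PD+LY replicate 2 (adjusted p = 0.0829). The second was lost without cAMP replicate 1 (adjusted p = 0.119), cAMP replicate 2 (adjusted p = 0.0515) or PD+LY replicate 2 (adjusted p = 0.0902). Across these omissions the log2 fold change stayed between 0.36 and 0.64. For 4OHT versus cAMP it was -0.01 (95% interval -0.32 to 0.31).

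Fabp7 (chr10:57784881-57788450, plus strand) encodes the fatty acid binding protein of radial glia. It measured 3.08 and 3.21 CPM in cAMP, 1.60 and 0.768 CPM in 4OHT, and 0.815 and 0.292 CPM in PD+LY. All treated libraries were below both cAMP libraries, and 4OHT and PD+LY overlapped. Fabp7 fell 5.68-fold in PD+LY versus cAMP (log2 fold change -2.51, SE 0.51, adjusted p = 0.00381), a call kept under all 6 omissions of a library. In 4OHT versus cAMP its log2 fold change was -1.43 (SE 0.47, 95% interval -2.46 to -0.40) at an adjusted p of 0.0857, which did not pass. It was -2.02 without 4OHT replicate 1 and -0.97 without 4OHT replicate 2, and the adjusted p was 0.0390 and 0.0373 when PD+LY replicate 1 or 2 was left out of the shared estimate of spread. The log2 difference between PD+LY and 4OHT was -1.07 (95% interval -2.30 to 0.15, adjusted p = 0.188).

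Dcx (chrX:143855842-143933311, minus strand) was near the limit of detection, with 1.19 and 0.585 CPM in cAMP, 0.267 and 0 CPM in 4OHT, and 0.764 and 0.340 CPM in PD+LY. These values rest on 19, 12, 4, 0, 15 and 7 counts. The library at 0 allows up to 0.164 CPM, the level of 3 counts. Both 4OHT libraries were the lowest, but no comparison passed the test. The log2 fold change of 4OHT versus cAMP was -2.77 with a 95% interval from -4.92 to -0.62 (adjusted p = 0.109), and it moved to -7.06 without 4OHT replicate 1 and to -1.68 without 4OHT replicate 2. For PD+LY versus 4OHT it was 2.11 with a 95% interval from -0.15 to 4.37 (adjusted p = 0.162), and 6.40 without 4OHT replicate 1 and 1.03 without 4OHT replicate 2. For PD+LY versus cAMP it was -0.66 (95% interval -2.28 to 0.96, adjusted p = 0.553).

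**Figure D2:**
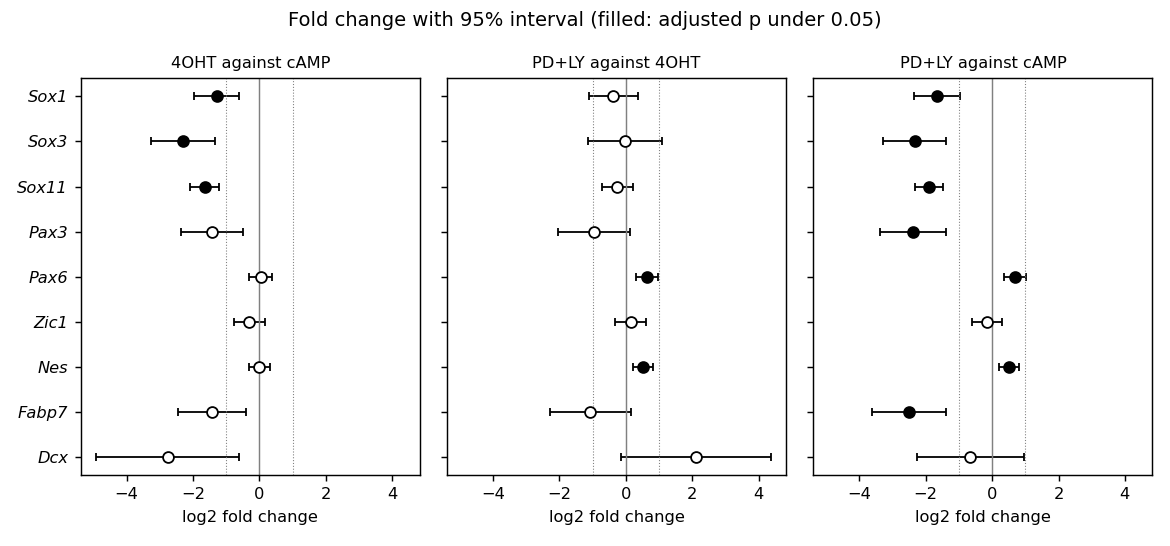
Log2 fold change (x axis) of the 9 genes with its 95% interval in the 3 comparisons. Filled points have an adjusted p below 0.05 and dotted lines mark a 2-fold change. Sox1, Sox3 and Sox11 were filled below 0 in 4OHT versus cAMP, Pax6 and Nes above 0 in PD+LY versus 4OHT, and 5 below and 2 above 0 in PD+LY versus cAMP.

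Taking the comparisons in turn, 3 of the 9 genes were DEGs in 4OHT versus cAMP, all lower, where 1.51% of all tested genes were lower DEGs and 1.17% higher DEGs. By adjusted p alone the same 3 fell, against 4.35% of all tested genes, and none rose, against 4.04%. The libraries did not overlap for 7 of the 9, all lower, and this holds for 29.4% of all tested genes in that direction and for 29.1% upward. The median log2 fold change of the 9 genes was -1.43, with 8 negative and 1 positive, and that of all tested genes was near 0. Without 4OHT replicate 1 the number of DEGs was 1, and without either PD+LY library it was 5, when Pax3 and Fabp7 joined.

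When the inhibitor group was set against 4OHT, none of the 9 genes was a DEG in edgeR, while 2.35% of all tested genes were higher and 4.90% lower DEGs. DESeq2 also gave 0, and an unadjusted p below 0.05 was reached by 2 of the 9, Pax6 and Nes. By adjusted p alone, 2 of the 9 rose, against 10.7% of all tested genes, and 0 fell, against 12.1%. The libraries did not overlap for 4 genes in the upward direction (Pax6, Nes, Zic1 and Dcx), against 31.1% of all tested genes, and for 1 in the downward direction (Pax3), against 31.1%. The median log2 fold change was -0.02.

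Relative to cAMP, the PD+LY libraries had 5 of the 9 genes as lower DEGs, against 6.24% of all tested genes, and none as a higher DEG, against 3.00%. By adjusted p alone the same 5 fell, against 13.7% of all tested genes, and 2 more rose, against 12.1%. The libraries did not overlap for 5 genes downward and 2 upward, against 31.2% and 30.2% of all tested genes, and the median log2 fold change was -1.66. The 3 comparisons share their groups, 2 by 2, so they are not independent of each other. Because the 9 genes were chosen with earlier results of these data known, these shares do not test the set. With 2 libraries a group an exact permutation test of a single gene cannot go below p = 0.3333, and where the labels do not say that libraries come from separate cultures the spread between them may be technical.

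To compare levels between genes, CPM was divided by exon length in kb. In cAMP, Nes was highest at 4.36 ± 0.264 CPM per kb (SD, n = 2), followed by Sox11 at 3.14 ± 0.199 and Fabp7 at 2.52 ± 0.0761 CPM per kb. Sox3, Zic1, Pax6 and Sox1 followed at mean levels of 1.65, 1.49, 1.22 and 1.18 CPM per kb, where each neighbour differed from the next by less than the larger SD of the pair. Pax3 at 0.524 ± 0.238 and Dcx at 0.0703 ± 0.0341 CPM per kb were lowest.

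The order changed in the treated groups. In 4OHT, Nes was still highest at 4.34 ± 0.482 CPM per kb, and Pax6 was second at 1.24 ± 0.145, next to Zic1 at 1.20 ± 0.0283 and Sox11 at 0.992 ± 0.257 CPM per kb. From Pax6 down to Pax3 each neighbour lay within the larger SD of the pair. In PD+LY, Nes reached 6.23 ± 0.893, Pax6 1.95 ± 0.0309, Zic1 1.34 ± 0.155 and Sox11 0.840 ± 0.129 CPM per kb. Fabp7, Sox1 and Sox3 could not be ordered beyond their spread, with means of 0.443, 0.373 and 0.324 CPM per kb, and were followed by Pax3 at 0.101 and Dcx at 0.0436 CPM per kb. Sox2, the remaining SoxB1 gene, stood far above all of them in every group, at 144, 130 and 164 CPM per kb in cAMP, 4OHT and PD+LY.

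The shares of all tested genes given above for each comparison also stand beside the counts of the gene lists that follow. A list of 30 further progenitor and proneural factors was examined, of which 24 could be tested. In 4OHT versus cAMP 7 fell and none rose by adjusted p, 4 as DEGs, and the median log2 fold change was -0.47. The DEGs included Prom1 (CD133, a membrane glycoprotein of neuroepithelium and other epithelia), Pou3f1 (Oct6, a POU factor of the epiblast and early neural cells) and Cdh2 (N-cadherin, the adhesion molecule of the neural tube). Prom1 dropped from 27.0 ± 0.698 CPM (SD, n = 2) in cAMP to 6.50 ± 0.0461 CPM in 4OHT (log2 fold change -2.05, SE 0.17, adjusted p = 6.39e-05). Pou3f1 went from 17.5 ± 5.55 to 6.53 ± 1.31 CPM (-1.42, SE 0.24, adjusted p = 0.00521). Cdh2 went from 14.5 ± 0.886 to 7.28 ± 3.00 CPM (-1.002, SE 0.24, adjusted p = 0.0260). The number of DEGs in this list was 2 without cAMP replicate 2.

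Prom1 and Pou3f1 fell further between 4OHT and PD+LY. Their PD+LY means were 3.62 and 1.64 CPM, and their log2 fold changes against 4OHT were -0.85 (adjusted p = 0.00890) and -1.99 (adjusted p = 0.000717). Over the list, 4 genes rose and 5 fell in PD+LY versus 4OHT, of which 1 and 2 were DEGs, with a median log2 fold change of 0.27. The higher DEG was Neurog3, the proneural factor of pancreatic endocrine precursors and some neurons, at 1.04 ± 0.154 CPM in 4OHT and 4.22 ± 0.284 CPM in PD+LY (log2 fold change 2.00, SE 0.46, adjusted p = 0.00898). Pou3f1 and Hes5 were the lower ones. Hes5, a Notch target that holds progenitors undifferentiated, had 47 counts over the cAMP libraries, 18 over 4OHT and 1 over PD+LY. The number of DEGs ran from 1 without 4OHT replicate 2 to 5 without PD+LY replicate 2. Set against cAMP, PD+LY had 2 genes that rose and 6 that fell, 2 and 4 of them as DEGs, at a median log2 fold change of -0.14, beside -1.66 for the 9 genes and 0.00 for all tested genes.

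Not all progenitor factors followed the Sox genes. Sox2, which marks neural progenitors and pluripotent cells alike, measured 297 ± 12.6, 268 ± 6.04 and 338 ± 5.48 CPM in cAMP, 4OHT and PD+LY. It passed no test in 4OHT versus cAMP (log2 fold change -0.15, adjusted p = 0.320) and rose by a log2 value of 0.33 in PD+LY versus 4OHT (adjusted p = 0.0154). Otx2, a forebrain and epiblast factor, fell in 4OHT as the Sox genes did (-0.84, adjusted p = 0.000284) and rose in PD+LY versus 4OHT (0.40, adjusted p = 0.00885). Its PD+LY mean of 141 CPM stayed below the 190 CPM of cAMP. Zic2 also fell in 4OHT (-0.40, adjusted p = 0.0469) and rose in PD+LY versus 4OHT (0.58, adjusted p = 0.00329). Its mean was 69.7 CPM in cAMP and 79.1 CPM in PD+LY. Otx2 and Zic2 lie outside the naming rule and were picked after their values were seen.

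Most proneural genes were barely detected. Neurog1, Neurog2, Neurod1, Insm1 and Atoh1 were too low to test, and Atoh1 had 0 counts in cAMP. Hes3, a progenitor factor of the same list and not a proneural gene, was also too low to test, with 0 counts in 4OHT. Of the 9 neural progenitor genes, 8 had 3 counts or more in every library, Dcx being the exception, so that progenitor factors were present while most of the proneural genes that drive neuron formation were at or near 0.

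**Figure D3:**
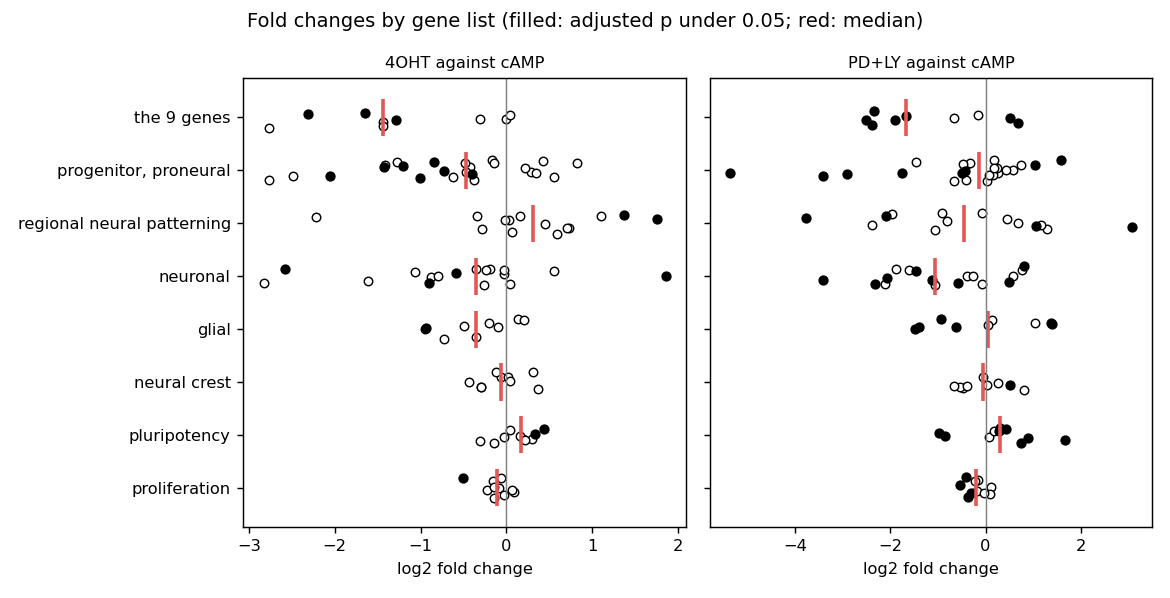
Log2 fold change (x axis) of every tested gene in 8 gene lists, for 4OHT versus cAMP and PD+LY versus cAMP. Filled points have an adjusted p below 0.05 and the red bar is the median of the list. The median of the 9 genes was -1.43 in 4OHT and -1.66 in PD+LY, and that of the neural crest list was -0.07 and -0.06.

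Regional patterning genes, which assign neural cells to forebrain, midbrain or spinal cord, had no single direction across the comparisons. Of 20 genes 14 could be tested. In 4OHT versus cAMP 2 rose and none fell, with a median log2 fold change of 0.31. Lmx1b, a LIM homeodomain factor of the midbrain, limb and kidney, was 7.69 ± 0.211 CPM in cAMP, 26.1 ± 0.154 CPM in 4OHT and 65.2 ± 14.2 CPM in PD+LY. Its log2 fold change was 1.76 (SE 0.17, adjusted p = 0.000119) in 4OHT versus cAMP and 1.32 (SE 0.15, adjusted p = 0.000151) in PD+LY versus 4OHT. En2, a midbrain-hindbrain homeobox gene, rose in 4OHT versus cAMP (1.37, SE 0.28, adjusted p = 0.0120). From 4OHT to PD+LY 1 gene rose and 2 fell, with a median log2 fold change of -0.54. Gbx2, of the anterior hindbrain, fell by 1.54 on the log2 scale (adjusted p = 0.00723) and Nkx6-1, of ventral neural tube and islet cells, dropped from 1.14 to 0.176 CPM (adjusted p = 0.0200). Between cAMP and PD+LY 2 rose (Lmx1b and En2) and 2 fell (En1 and Wnt1), at a median of -0.45. Wnt1, a midbrain signal, measured 1.45 CPM in cAMP and 0.0995 CPM in PD+LY, the latter below the level of 3 counts.

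Among 18 neuronal genes, of which 17 were tested, 1 rose and 3 fell in 4OHT versus cAMP, with a median log2 fold change of -0.36. The neurofilament-like alpha-internexin (Ina) fell from 25.6 ± 1.99 to 4.26 ± 0.646 CPM (a log2 difference of -2.58, SE 0.18, adjusted p = 3.93e-05), then rose to 11.7 ± 1.06 CPM in PD+LY (log2 fold change 1.45 from 4OHT, SE 0.19, adjusted p = 0.000321). Isl1, a LIM factor of motor neurons, heart and endocrine cells, rose in 4OHT versus cAMP (1.86, SE 0.44, adjusted p = 0.0228). The PD+LY libraries, set against cAMP, had 2 neuronal genes that rose and 6 that fell, with a median of -1.07. Those that fell included the neurofilaments Nefm (-3.41, adjusted p = 0.000149) and Nefl (-2.07, adjusted p = 9.63e-05), the neuronal RNA-binding protein gene Elavl3 (-2.32, adjusted p = 1.03e-05) and Stmn2 (-1.46, adjusted p = 1.20e-05), a microtubule regulator of growing axons. Stmn2 was 76.4 ± 10.5 CPM in cAMP, 74.7 ± 0.367 CPM in 4OHT and 27.7 ± 2.61 CPM in PD+LY. Between cAMP and 4OHT the log2 difference of Stmn2 was -0.03 (95% interval -0.30 to 0.24). It was 1 of 14 negative values among the 17 tested neuronal genes, and of these 14 genes 3 fell by adjusted p.

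In 4OHT versus cAMP, glial and neural crest genes passed the test about as rarely as all tested genes, of which 4.04% rose and 4.35% fell. Of 10 glial genes 9 were tested, and in 4OHT versus cAMP 1 fell and none rose, with a median log2 fold change of -0.36 and 7 of the 9 values negative. With the inhibitors 3 rose and 3 fell against 4OHT, at a median of 0.02, where Mbp, a myelin protein gene with other transcripts outside the nervous system, went from 28.2 ± 1.13 to 85.7 ± 2.61 CPM (1.60 on the log2 scale, SE 0.12, adjusted p = 6.76e-06) and Gfap, the astrocyte filament, from 1.44 ± 0.439 to 5.36 ± 0.809 CPM (1.87, SE 0.34, adjusted p = 0.00238). Slc1a3, the glutamate transporter of radial glia and astrocytes, was lower in PD+LY than in cAMP (9.44 ± 1.12 and 26.3 ± 1.46 CPM, log2 fold change -1.48, adjusted p = 5.34e-05). Of the 9 neural crest genes tested none passed in 4OHT versus cAMP, and in PD+LY versus 4OHT Twist1 alone fell (-1.03, SE 0.33, adjusted p = 0.0439). The crest gene Erbb3 was 67.4 ± 3.83, 64.4 ± 1.93 and 64.7 ± 1.68 CPM in the 3 groups.

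Close relatives of the 9 genes by family (24 genes, 20 tested) had 2 that rose and 3 that fell in 4OHT versus cAMP, with a median log2 fold change of -0.12, and 2 were DEGs, both lower, Ina among them. With the inhibitors 3 rose and 4 fell against 4OHT, and Ina was the 1 DEG. Set against cAMP 3 fell and none rose, with a median of -0.16 and with 2 lower DEGs, Ina among them.

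For each of the 5 genes that were a DEG in at least 1 comparison, the 3 genes whose log2 CPM went most closely with it over the 6 libraries were looked up among the 13779 genes that averaged 1 CPM or more. The 6 libraries fall into 3 groups, and the values are given as a description. For Sox1 they were Apela (Pearson's r = 0.997), Slc40a1 (0.996) and Kif11 (0.995), and for Sox3 Ska3 (0.996), Ankrd35 (0.995) and Serpinb1b (0.994). Sox11 went with 2610037D02Rik (0.996), Scaf11 (0.996) and the Wnt effector Lef1 (0.994). Pax3 went with Rps3a1 (0.995), Tbl1x (0.993) and Lhfpl4 (0.991), and Fabp7 with Relt (0.996), Tmem98 (0.994) and Megf10 (0.994). Pearson's r takes no account of the size of a change, and in 4OHT versus cAMP the log2 fold change was -0.28 for Tbl1x and -1.43 for Pax3.

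Summed RNA levels of marker lists for other cell types also differed between the groups. The summed level of the 9 genes was 91.7 to 94.7 CPM in cAMP, 58.2 to 67.8 CPM in 4OHT and 80.2 to 83.0 CPM in PD+LY. That of 10 mesenchymal genes, all at 3 counts or more, was 1207 to 1314 CPM in cAMP, 2255 to 2377 CPM in 4OHT and 4113 to 4843 CPM in PD+LY, with 4 of 10 higher in 4OHT versus cAMP and 5 higher and 2 lower in PD+LY versus cAMP. That of 10 pluripotency genes, Sox2 among them, was 3703 to 3819 CPM, 4163 to 4345 CPM and 4443 to 4745 CPM, with 2 of 10 higher in 4OHT and 6 higher and 2 lower in PD+LY, both versus cAMP. In the sum of the 9 genes, the rise from 4OHT to PD+LY was carried mainly by Nes (mean 27.9 to 39.9 CPM) and Pax6 (14.5 to 22.9 CPM). The means of Sox1, Sox11, Pax3 and Fabp7 were lower in PD+LY than in 4OHT, none past the test. The part of the other cell types in the levels of the 9 genes was not tested.

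Of 10 endothelial genes 4 of 9 tested fell and 1 rose in 4OHT versus cAMP, among them Kdr (-2.31, adjusted p = 0.000688) and Cdh5 (-1.47, adjusted p = 0.00381), the VEGF receptor and the cadherin of vessels, while their summed level, carried by Pecam1, was 186 to 197 CPM in cAMP, 203 to 206 CPM in 4OHT and 179 CPM in PD+LY. Of 10 muscle progenitor genes, relevant to Pax3, 4 could be tested, and the myogenic factors Myf5 and Myf6 had 0 counts in all 6 libraries. In 4OHT versus cAMP 1 of them fell, and with the inhibitors 1 rose against 4OHT. Of 10 endocrine and lens genes, relevant to Pax6, 6 were tested, and 2 rose and none fell in 4OHT versus cAMP, while 2 rose and 1 fell in PD+LY versus cAMP. The islet hormone gene Ins1 had 0 counts in all libraries, Ins2 had 1 and Gcg 2 over all libraries. The 10 proliferation genes summed to 3346 to 3461 CPM in cAMP, 3111 to 3157 CPM in 4OHT and 2910 to 2930 CPM in PD+LY, and 1 of 10 lower in 4OHT and 4 of 10 lower in PD+LY versus cAMP.

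The thyroid lineage targeted by the transgene was present, with 10 of 10 thyroid genes tested. Thyroglobulin (Tg) was 1293 ± 384, 603 ± 127 and 1388 ± 681 CPM in cAMP, 4OHT and PD+LY, and 3 thyroid genes fell in 4OHT versus cAMP while 6 rose in PD+LY versus 4OHT. Of 10 ERK response genes, 1 rose and 2 fell in 4OHT versus cAMP, and 9 fell in PD+LY versus 4OHT, with a median log2 fold change of -2.89. Between these groups, the log2 differences of Sox1, Sox3 and Sox11 were -0.38, -0.02 and -0.25, none past the test. Whether these RNA levels belong to follicular or other cells was not tested.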

How the data were processed

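RNA of 6 libraries (2 each of cAMP, 4OHT and PD+LY) was prepared with a stranded TruSeq kit. According to the authors' methods, Trimmomatic trimmed the reads, HISAT2 aligned them to mm10 and HTSeq counted them per gene with the strand ignored, with versions not given in the sources used here, and the deposited values are raw counts per gene symbol. No column was left unassigned to a library.

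Counts were filtered with filterByExpr (minimum count 10, minimum total 15), scaled with TMM (factors 0.990 to 1.01) and fitted as 1 model of 3 groups with edgeR 4.0.16 (R 4.3.3) and its quasi-likelihood test, with Benjamini-Hochberg adjustment over 15256 genes. DEGs had an adjusted p below 0.05 and a 2-fold change. Replicates differed by more than counting error, with a chi-square divided by its degrees of freedom of 7.16 (cAMP), 4.08 (4OHT) and 15.1 (PD+LY). The floor of 3 counts (0.146 to 0.200 CPM) covers counting error only.

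Alternatives were DESeq2 1.42.0, RLE scaling, testing without a filter or with 10 counts required of each library, only the groups compared, a replicate block, no fold threshold, and omission of each library. The 9 genes and all gene lists were chosen with earlier results of these data known. By a set rule, all 9 genes are named, together with up to 4 DEGs of largest change per list and comparison (where there was none, the 2 genes of highest level) and the 3 genes of most similar pattern. A gene that the rule names is not reported here. Gene positions and exon lengths are from GENCODE M21, and upstream sequences from RefSeq (GRCm38.p6), trimmed to exclude transcribed bases. No other transcript had 95% identity to one of the 9 genes over 100 bases.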

Additional observations from a re-analysis of the deposited data

How the results depend on the processing

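With 2 libraries a group, values of single genes depended on single libraries. Under the alternatives, 65 recomputed counts of DEGs stayed within 1.5 times the original and 13 did not. Among recomputed fold changes of the 9 genes, 278 kept their direction and side of the threshold, 13 newly passed it, 14 no longer did and 9 changed sign. The 278 include Dcx in 4OHT against cAMP under DESeq2, which kept its direction but had no adjusted p. In 4OHT against cAMP the 3 DEGs among the 9 genes became 5 without a filter, 5 with only the 2 groups compared and 6 with the replicate block, and 1 to 5 when a library was omitted. In PD+LY against 4OHT the 0 DEGs became 2 by adjusted p alone and stayed at 0 without any library. In PD+LY against cAMP the 5 became 3 with at least 10 counts in every library, because 3 of the genes were then not tested, and 4 to 5 without a library. In the progenitor and proneural list, adjusted p alone gave 7 for 4 DEGs in 4OHT against cAMP and 9 for 3 in PD+LY against 4OHT, and omission of a library gave 2 to 4, 1 to 5 and, in PD+LY against cAMP, 4 to 6. Differences near 0 changed sign when a library was omitted: Pax6 (-0.087 to 0.15) and Nes (-0.12 to 0.11, and 1.4e-05 with only the 2 groups compared) in 4OHT against cAMP, Sox3 (-0.47 to 0.74) and Sox11 (-0.48 to 0.054) in PD+LY against 4OHT, and Zic1 (-0.34 to 0.060) in PD+LY against cAMP. Under the replicate block Pax3 (adjusted p = 0.0337), Fabp7 (adjusted p = 0.0273) and Dcx (adjusted p = 0.0396) passed in 4OHT against cAMP. The labels do not say whether same-numbered libraries belong together. The deviations of same-numbered libraries correlated at 0.07, 0.21 and 0.06 between groups. The cause of the changed calls was not tested. Dcx, Sox3, Fabp7 and Pax3 are limited by depth, with 0 to 88 counts in a library.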
